A study of Mus musculus with 8 samples.

Results

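The DNA replication licensing genes described here are *Cdt1*, *Gmnn*, *Cdc6*, *Orc1* and *Mcm2* to *Mcm7*. They were taken by gene symbol from the deposited tables, which list 53090 genes, and all 10 symbols were found. Total RNA of mouse sciatic nerves was sequenced at 7 days of age, after removal of ribosomal RNA and globin mRNA, to profile the transcriptome of *Nae1* mutant nerves. The 4 *Nae1* cKO nerves came from mice that were homozygous for a floxed *Nae1* allele and carried a transgene that drives Cre recombinase in Schwann cells. The 4 WT nerves, called control nerves here, came from littermates without Cre that also carried 1 or 2 floxed alleles. NAE1 is the regulatory subunit of the enzyme that activates NEDD8, a small protein whose attachment switches on cullin-RING ubiquitin ligases. The nerves are named by the letter and number of their labels, K1, L3, L4 and L9 for controls and K2, L1, L5 and L8 for *Nae1* cKO. What the letters stand for is not given, and nothing in the labels says that the 4 libraries of a group came from 4 separate mice, so the p values measure the spread between these libraries.

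Licensing is the step that prepares a stretch of chromosome for a single round of copying. In G1, the origin recognition complex, to which ORC1 belongs, and CDC6 recruit CDT1, which brings in the MCM2-7 ring, the core of the replicative helicase. Geminin, the product of *Gmnn*, binds CDT1 and stops further loading once S phase has begun, and the cullin-RING ligases CRL4-CDT2 and SCF-SKP2 mark CDT1 for destruction. Most of these genes are classic targets of the E2F transcription factors and are transcribed as cells enter the cycle. In the nerve at this age, Schwann cells, fibroblasts and macrophages can all be in cycle. Only mRNA was measured, so none of the values below speaks of protein.

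The promoters are shown because E2F sites are the feature these genes are best known to share. RefSeq windows on GRCm38.p6, from 250 bases before to 50 bases after a start site, were at hand for 8 of the 10 genes (9 windows, since *Mcm7* has 2 start sites). No window is shown for *Gmnn* and *Mcm4*. The E2F words searched were TTTGGCGC, TTTCGCGC, TTTCCCGC and TTTGCCGC, on both strands. At least 1 of these words was found in 7 of the 8 genes, and in 2.26% of all 32817 promoter windows (3.73% of the 13989 windows of genes tested here). The window of *Mcm2* held none of them, nor did the second window of *Mcm7*. The stretches below run 5′ to 3′ on the strand of the gene, with the E2F words in capitals.
*Cdt1*, chr8:122568036-122568064, plus strand, in the transcribed part: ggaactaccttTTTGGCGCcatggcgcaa
*Cdc6*, chr11:98908002-98908031, plus strand: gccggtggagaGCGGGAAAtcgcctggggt
*Orc1*, chr4:108579416-108579445, plus strand: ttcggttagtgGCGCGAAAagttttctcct
*Mcm3*, chr1:20820265-20820294, minus strand, in the transcribed part: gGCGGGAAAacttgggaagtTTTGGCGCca
*Mcm5*, chr8:75109347-75109376, plus strand: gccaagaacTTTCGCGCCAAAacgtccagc
*Mcm6*, first stretch, chr1:128359795-128359824, minus strand: gcgtatgctTTTGGCGCGAAAagtgcgtgc
*Mcm6*, second stretch, chr1:128359734-128359763, minus strand: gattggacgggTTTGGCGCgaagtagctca
*Mcm7*, first stretch, chr5:138172030-138172059, minus strand: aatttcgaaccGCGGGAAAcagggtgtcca
*Mcm7*, second stretch, chr5:138171849-138171878, minus strand, in the transcribed part: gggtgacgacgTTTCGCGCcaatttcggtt

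In *Mcm5* and in the first stretch of *Mcm6*, 2 words on opposite strands overlapped, so the capitals run on. A CCAAT box (CCAAT, either strand) was found in 6 of the 8 genes and in 37.4% of all windows, and a GC box (GGGCGG, either strand) in 6 of the 8 genes and in 35.6% of all windows, or 60.4% of those of tested genes. The start site used for *Cdc6* lies 350 bases inside the gene as GENCODE vM21 draws it, and those for *Mcm7* lie 539 and 1156 bases inside, so the windows of both genes are within the gene in that annotation, the first *Mcm7* stretch included. The start site for *Orc1* lies 31 bases inside, so its E2F word, though not its whole stretch, is also within the gene there. A match is a run of letters and was not measured as a bound site.

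The targeted gene was checked first. *Nae1* was at 77.7 to 89.8 CPM (counts per 1000000, scaled by TMM) in control nerves and at 43.8 to 57.2 CPM in *Nae1* cKO nerves. It fell by 0.68 on the log2 scale (SE 0.097, adjusted p = 0.000277, edgeR's quasi-likelihood test with Benjamini-Hochberg adjustment over 17090 genes, which is the test behind every adjusted p below unless another tool is named). From TPM (transcripts per 1000000, corrected for length) the *Nae1* call was lost. It was at −0.44 with log2(TPM + 1) and −0.46 with log2(TPM + 0.1) (both adjusted p = 0.266, limma). With TPM rescaled without genes under 300 bases it passed (−0.49, adjusted p = 0.0102, limma). Depth was 12962798 to 14766770 expected counts per nerve. *Nae1* cKO nerve K2 stood apart from L1, L5 and L8, with 1.54% of its counts in mitochondrial genes against 3.08% to 3.13% (2.19% to 4.23% in control nerves). It was the lowest of its group for 10 of the 10 licensing genes, so their values are also given without it (*Nae1* fell by 0.74 on the log2 scale without K2). Leaving out the lowest nerve must raise the mean of its group. Calls gained and larger fold changes without K2 are therefore no added evidence of a rise.

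Licensing transcripts were more abundant in *Nae1* cKO nerves. Of the 10 genes, all of which passed the filter on low counts, 7 rose (*Gmnn*, *Cdc6* and *Mcm3* to *Mcm7*), where 14.1% of all genes tested did. None fell, where 12.3% of all genes did, and none had a lower mean in *Nae1* cKO nerves at an unadjusted p under 0.05. The other three, *Cdt1*, *Orc1* and *Mcm2*, were higher by 0.55 to 0.61 on the log2 scale and did not pass. A rise of more than 2-fold was called for 2 genes, *Gmnn* and *Cdc6*, against 4.25% of all genes. The median log2 fold change was 0.89, against 0.0066 over all genes tested. All 4 *Nae1* cKO nerves lay above all 4 control nerves for 5 of the genes (*Gmnn*, *Cdc6*, *Mcm3*, *Mcm5* and *Mcm7*), where 14.9% of all genes did so.

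Without nerve K2, 10 of the 10 genes passed, 6 of them with a rise of more than 2-fold, and the median log2 fold change was 1.05. In that fit 2723 of all 17374 genes tested rose, 796 of them by more than 2-fold, and the median over all genes was −0.0029. Nerves L1, L5 and L8 lay above every control nerve for 9 of the 10 genes, *Orc1* being the exception. With K2 kept, this held for 5 of the 10 genes. How many of all genes separated without K2 was not counted. Setting aside the lowest nerve favours such a separation, so it is no added evidence of a rise. Relative to the control mean of each gene, the median over the 10 genes was 0.19 in K2, 1.11 in L1, 1.10 in L5 and 0.96 in L8 on the log2 scale. The control nerves had medians of −0.18 to 0.18. With the 6 nerves of letter L alone, 8 genes passed, all but *Cdt1* (adjusted p = 0.0576) and *Orc1* (adjusted p = 0.0562), where 2394 of all 17146 genes tested rose. When the control nerves richest in skeletal muscle RNA, K1 and L4, were left out, 3 genes passed (*Gmnn*, *Mcm3* and *Mcm7*). In that comparison of 2 controls with 4 *Nae1* cKO nerves, the log2 fold changes that no longer passed were 1.14 for *Cdc6*, 0.83 for *Mcm5*, 0.75 for *Mcm6* and 0.67 for *Mcm4*, and calls of higher genes over all genes went from 2411 to 1273.

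**Figure D1:**
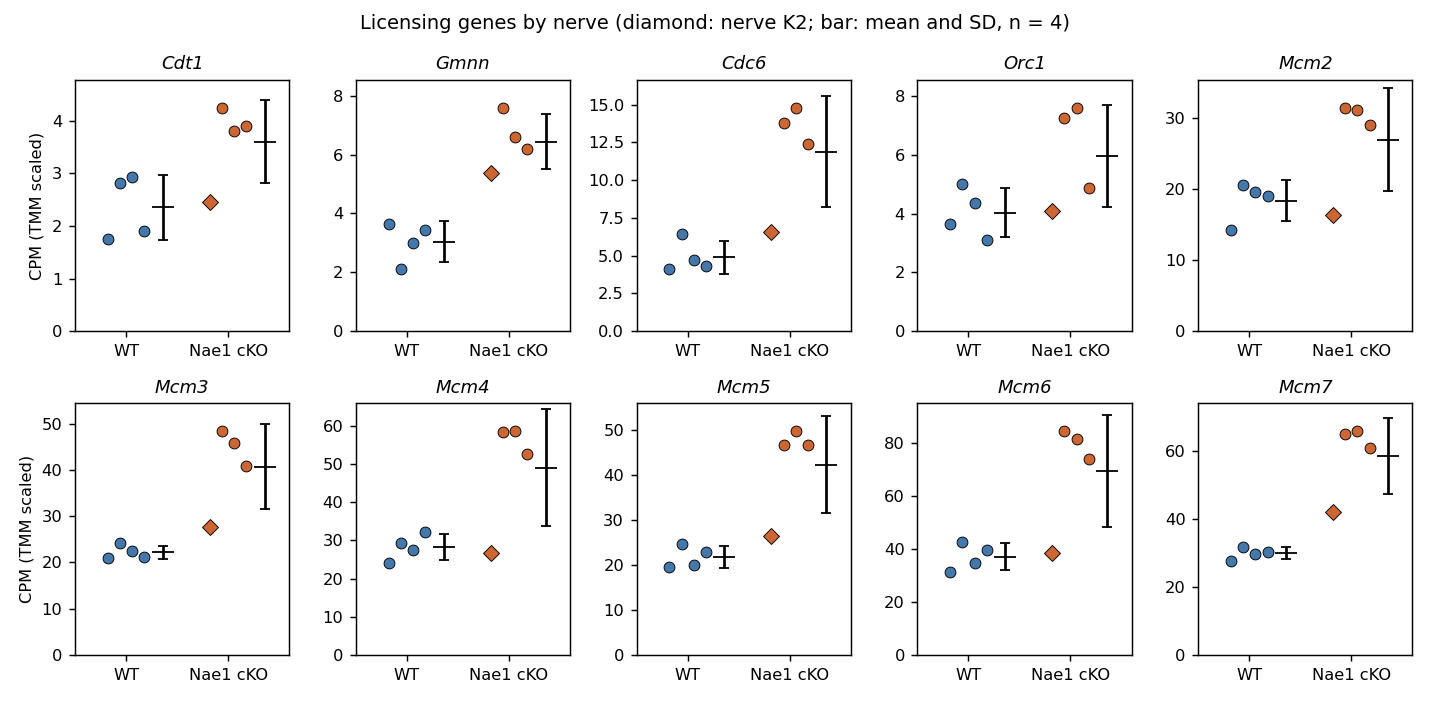
Level of each licensing gene (y axis, CPM after TMM scaling) in 4 WT and 4 Nae1 cKO nerves, 1 point per nerve with the mean and SD beside them and nerve K2 drawn as a diamond. K2 is the lowest Nae1 cKO nerve in every panel, and in 5 panels (Gmnn, Cdc6, Mcm3, Mcm5, Mcm7) it still lies above all 4 WT nerves.

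*Gmnn* (ENSMUSG00000006715.11, chromosome 13, 24751845 to 24761923, minus strand of GRCm38) encodes geminin, the inhibitor of CDT1. It was at 3.65, 2.10, 3.01 and 3.42 CPM in control nerves K1, L3, L4 and L9. In *Nae1* cKO nerves K2, L1, L5 and L8 it was at 5.37, 7.59, 6.59 and 6.20 CPM. The groups did not overlap, and *Gmnn* was the licensing gene in which K2 lay closest to the rest of its group. This is a log2 fold change of 1.08 (SE 0.197, adjusted p = 0.00152), and of 1.15 without K2.

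*Cdt1* (ENSMUSG00000006585.3, chromosome 8, 122568015 to 122573554, plus strand) encodes the factor that geminin holds back and that loads the MCM ring. It was the least abundant per length, and its counts were low, at 24 to 61 per nerve. Control nerves K1, L3, L4 and L9 had 1.75, 2.82, 2.94 and 1.91 CPM, and *Nae1* cKO nerves K2, L1, L5 and L8 had 2.46, 4.25, 3.81 and 3.90 CPM. Nerve K2 lay among the controls and the other three above them. The log2 fold change of 0.61 (SE 0.241, adjusted p = 0.0831) did not pass, and it passed without K2 (0.75, adjusted p = 0.0222) and with the letter of the labels as a term (0.60, adjusted p = 0.0331).

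The balance of the pair was compared within each nerve, where library scaling cancels. For each *Gmnn* transcript there were 0.22, 0.63, 0.33 and 0.25 *Cdt1* transcripts in control nerves K1, L3, L4 and L9, by the ratio of their TPM (transcripts per 1000000, corrected for length). In *Nae1* cKO nerves K2, L1, L5 and L8 there were 0.17, 0.29, 0.25 and 0.37. The groups overlapped, with a mean log2 ratio of −1.61 ± 0.678 (SD, n = 4) in controls and −1.96 ± 0.475 (SD, n = 4) in *Nae1* cKO nerves (two-sided exact permutation test, p = 0.457). *Gmnn* was the more abundant of both in all 8 nerves, and no difference in the ratio was detectable at this depth.

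*Cdc6* (ENSMUSG00000017499.15, chromosome 11, 98907801 to 98923940, plus strand) encodes the ATPase that joins the origin complex to receive the MCM ring. It had the largest fold change of the 10 genes. Levels were 4.09, 6.44, 4.73 and 4.29 CPM in control nerves K1, L3, L4 and L9, and 6.57, 13.8, 14.8 and 12.4 CPM in *Nae1* cKO nerves K2, L1, L5 and L8. K2 lay just above the highest control and the other three at least at 12.4 CPM. It rose by 1.28 on the log2 scale (SE 0.245, adjusted p = 0.00228), and 1.47 without K2.

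*Orc1* (ENSMUSG00000028587.18, chromosome 4, 108579423 to 108614833, plus strand) encodes the largest subunit of the origin recognition complex and the one whose amount is known to swing with the cell cycle. Control nerves K1, L3, L4 and L9 had 3.65, 5.0, 4.38 and 3.10 CPM, and *Nae1* cKO nerves K2, L1, L5 and L8 had 4.10, 7.25, 7.61 and 4.88 CPM. Nerves K2 and L8 lay among the controls. The log2 fold change of 0.56 (SE 0.230, adjusted p = 0.094) did not pass with K2 and passed without it (0.70, adjusted p = 0.0224). Of the genes for the other subunits, *Orc2* to *Orc6*, 0 of 5 passed, in either direction and also at an unadjusted p under 0.05. Their log2 fold changes ran from 0.04 to 0.19 with a median of 0.06, *Orc6* being the highest (adjusted p = 0.254).

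The 6 subunits of the MCM ring were higher by 0.55 to 0.97 on the log2 scale, and 5 of the 6 passed. *Mcm7* (ENSMUSG00000029730.16, chromosome 5, 138164583 to 138172422, minus strand) was at 27.5, 31.8, 29.8 and 30.3 CPM in control nerves K1, L3, L4 and L9. In *Nae1* cKO nerves K2, L1, L5 and L8 it was at 41.9, 65.0, 65.7 and 60.8 CPM. All *Nae1* cKO nerves, K2 included, lay clear of the controls. Its log2 fold change of 0.97 had the smallest standard error of the 10 genes (SE 0.131, adjusted p = 0.000192), and it was 1.09 without K2.

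*Mcm3* (ENSMUSG00000041859.10, chromosome 1, 20802968 to 20820312, minus strand) went from 20.9, 24.1, 22.5 and 21.1 CPM to 27.7, 48.3, 45.8 and 40.9 CPM in the same order of nerves, a log2 fold change of 0.88 (SE 0.152, adjusted p = 0.00115). *Mcm5* (ENSMUSG00000005410.6, chromosome 8, 75109569 to 75128439, plus strand) went from 19.6, 24.5, 19.9 and 22.8 CPM to 26.3, 46.5, 49.6 and 46.6 CPM, a log2 fold change of 0.96 (SE 0.178, adjusted p = 0.00214). In both genes K2 lay slightly above the highest control and far below the rest of its group. Without K2 the log2 fold changes were 1.02 for *Mcm3* and 1.12 for *Mcm5*.

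*Mcm4* (ENSMUSG00000022673.4, chromosome 16, 15623897 to 15637400, minus strand) went from 24.2, 29.3, 27.5 and 32.1 CPM to 26.6, 58.4, 58.6 and 52.8 CPM (log2 fold change 0.80, SE 0.225, adjusted p = 0.0266). *Mcm6* (ENSMUSG00000026355.11, chromosome 1, 128331590 to 128359664, minus strand) went from 31.1, 42.5, 34.6 and 39.6 CPM to 38.4, 84.2, 81.3 and 73.7 CPM (log2 fold change 0.91, SE 0.228, adjusted p = 0.0165). For both, K2 lay among the controls. Without it the log2 fold changes were 0.995 for *Mcm4* (adjusted p = 6.64e-06) and 1.10 for *Mcm6* (adjusted p = 4.9e-06). With each nerve left out in turn, *Mcm4* passed in 2 of 8 fits and *Mcm6* in 7 of 8, while *Gmnn*, *Cdc6*, *Mcm3*, *Mcm5* and *Mcm7* passed in 8 of 8.

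*Mcm2* (ENSMUSG00000002870.8, chromosome 6, 88883474 to 88898780, minus strand), whose product also carries histones at the fork, had the smallest fold change of the ring. Control nerves K1, L3, L4 and L9 had 14.2, 20.6, 19.6 and 19.0 CPM, and *Nae1* cKO nerves K2, L1, L5 and L8 had 16.3, 31.4, 31.1 and 28.9 CPM. Nerve K2 lay below 3 of the 4 controls. The difference of 0.55 on the log2 scale (SE 0.198, adjusted p = 0.0607) did not pass, and that without K2 did (0.73, adjusted p = 0.000424). It also passed with the letter of the labels as a term (0.53, adjusted p = 0.00117) and with DESeq2 (0.54, adjusted p = 0.0317).

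**Figure D2:**
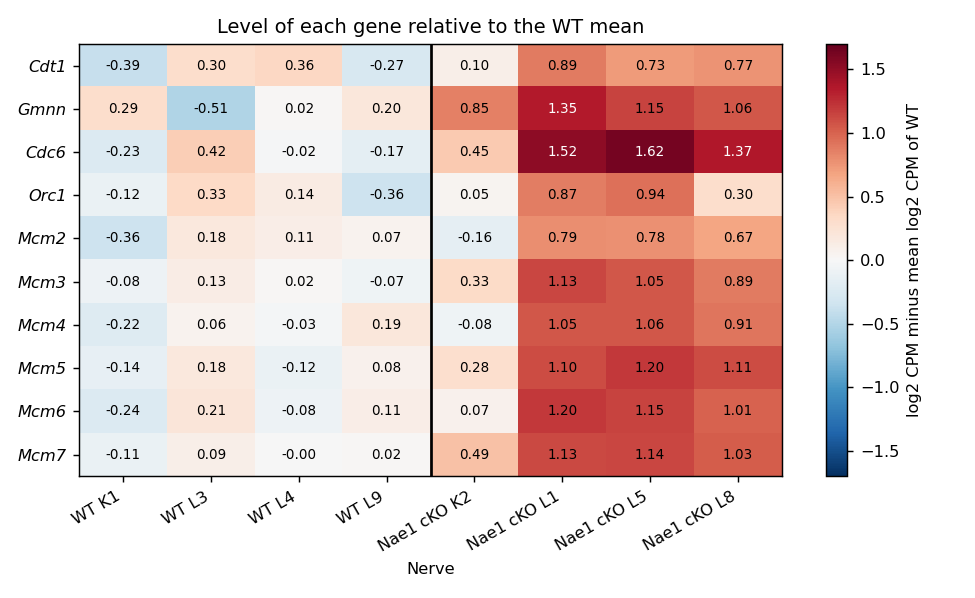
Log2 CPM of each licensing gene (rows) in each nerve (columns), less the mean log2 CPM of the 4 WT nerves for that gene. Nerves L1, L5 and L8 are high across the genes (medians 1.11, 1.10 and 0.96), and K2 has a median of 0.19.

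Per length, the ring subunits were the more abundant class. In control nerves TPM averaged 11.2 ± 1.48 for *Mcm7*, 8.61 ± 1.76 for *Mcm6*, 6.37 ± 1.08 for *Mcm5*, 6.35 ± 1.35 for *Mcm3*, 5.48 ± 1.08 for *Mcm4* and 4.00 ± 0.635 for *Mcm2* (SD, n = 4). The regulators followed with 2.78 ± 0.756 for *Gmnn*, 2.23 ± 0.552 for *Orc1*, 1.02 ± 0.235 for *Cdc6* and 0.897 ± 0.209 for *Cdt1* (SD, n = 4). *Mcm7* was first and *Mcm6* second in 8 of 8 nerves. In controls *Mcm5*, *Mcm3* and *Mcm4* differed by less than their spread, as did *Gmnn* and *Orc1*, and *Cdc6* and *Cdt1*. TPM is used here for levels within a nerve, with 1 exception named as such, and for alternatives to the main fit. The reason is that genes shorter than 300 bases, led by *Rn7s2*, took 65.8% to 81.2% of it and their share differed between nerves.

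*Mcm2* took a smaller share of the ring in *Nae1* cKO nerves. It made up 9.52, 9.50, 9.69 and 9.37% of the summed TPM of *Mcm2* to *Mcm7* in control nerves K1, L3, L4 and L9. In *Nae1* cKO nerves K2, L1, L5 and L8 it made up 8.11, 7.61, 7.31 and 7.66%. The groups did not overlap, and K2 fell with the rest of its group in this measure. The shares of the other 5 subunits overlapped between the groups, among them *Mcm7* at 26.0 to 28.2% in controls and 25.5 to 29.4% in *Nae1* cKO nerves. From expected counts the share of *Mcm2* was 10.3 to 12.7% in controls and 9.18 to 9.50% in *Nae1* cKO nerves, again without overlap. This gene was singled out after its values were seen, and its share was not tested. The coefficient of variation of the 6 subunits' TPM was 34.2 to 38.8% in controls and 38.8 to 44.7% in *Nae1* cKO nerves, with means of 37.2 ± 2.12% and 41.0 ± 2.70% (SD, n = 4). The groups overlapped, with control nerve K1 (38.8%) just above L1 (38.79%). From expected counts it was 23.5 to 28.7% in controls and 31.0 to 32.5% in *Nae1* cKO nerves, without overlap. Neither was tested.

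**Figure D3:**
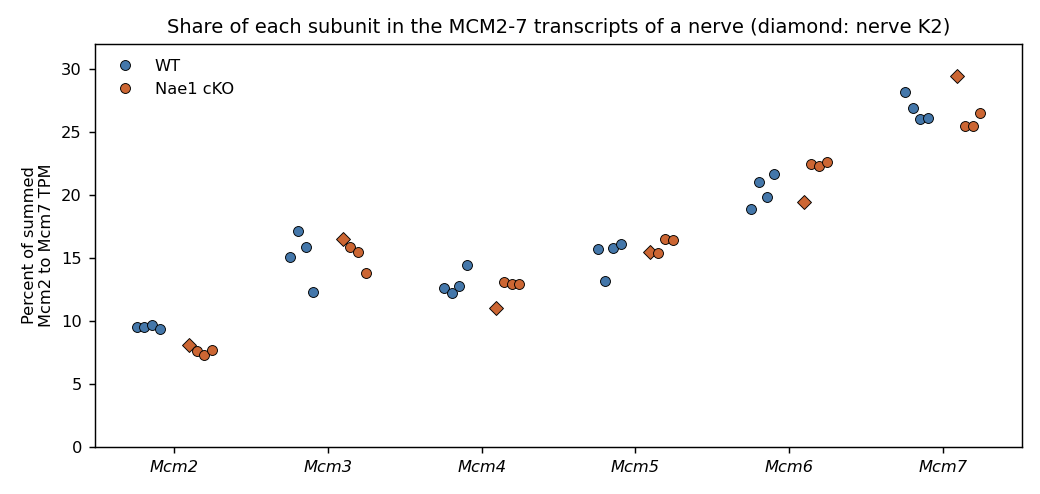
Percent of the summed Mcm2 to Mcm7 TPM of a nerve (y axis) taken by each subunit, 1 point per nerve, with nerve K2 as a diamond. Mcm2 lies at 9.37 to 9.69% in WT nerves and 7.31 to 8.11% in Nae1 cKO nerves, and the groups overlap for the other 5 subunits.

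The estimated mixture of transcripts behind *Orc1*, *Cdc6* and *Mcm7* differed between the groups without overlap. RSEM gives each gene an effective length, the mean over its transcripts, weighted by estimated abundance, of a length from which the ends that no whole fragment can start in are taken off. It is shorter than the transcript, as for *Mcm4* with 3437 to 3444 bases and a longest GENCODE transcript of 3589. That of *Orc1* was 1200, 1290, 1094 and 1248 bases in control nerves K1, L3, L4 and L9 and 1832, 1837, 1663 and 1541 bases in *Nae1* cKO nerves K2, L1, L5 and L8. GENCODE vM21 lists 5 *Orc1* transcripts, 1 coding (3014 bases) and the others between 173 and 679 bases. The longer forms thus held a larger estimated part in *Nae1* cKO nerves, and counts alone do not correct for that. Between groups on the log2(TPM + 0.1) scale, the exception to the use of TPM, *Orc1* was at 0.16 where the median of all genes was at 0.13, against 0.56 and 0.0066 from counts.

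*Mcm7* also had longer transcripts in *Nae1* cKO nerves, at 1933 to 2033 bases against 1687 to 1827. *Cdc6* had shorter ones, at 2565 to 2785 bases against 2934 to 3757. GENCODE lists 4 *Cdc6* transcripts, 2 coding (4614 and 2559 bases) and the others of 4802 and 694 bases. Which of them changed in part was not tested. Of the 9 licensing genes whose effective length varied by more than 20 bases, these 3 did not overlap between the groups, where 4.11% of 11492 such genes did not. Nerve K2 lay with its group in all 3. The estimates for *Orc1* rest on 39 to 112 counts per nerve, and the annotation the authors used may differ from GENCODE vM21.

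**Figure D4:**
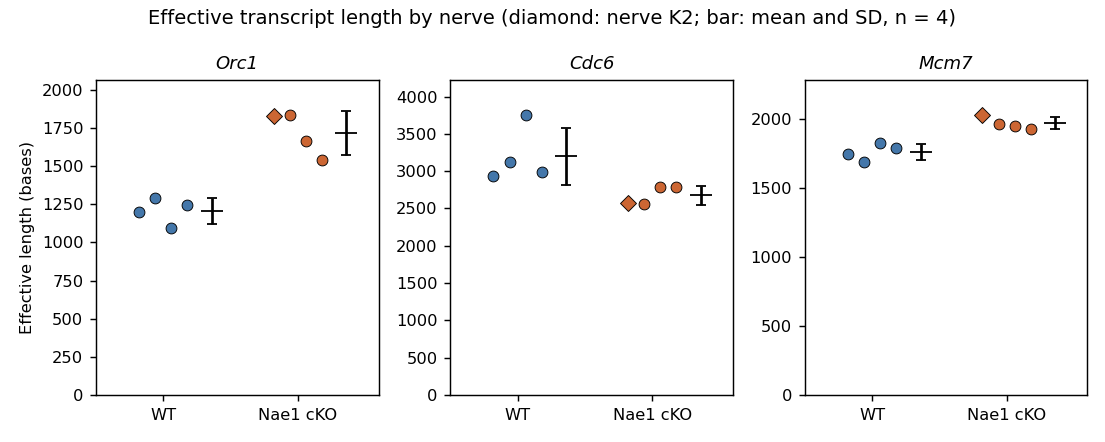
Effective transcript length in bases (y axis) of Orc1, Cdc6 and Mcm7 in each nerve, with the mean and SD (n = 4) and nerve K2 as a diamond. Orc1 and Mcm7 are longer and Cdc6 is shorter in all 4 Nae1 cKO nerves than in any WT nerve.

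The steps that follow licensing were described by lists of genes. Over all genes tested, 14.1% rose and 12.3% fell, and the counts of these lists are to be read beside those shares. Among 12 origin firing genes, 8 rose and 0 fell, with a median log2 fold change of 0.73. *Gins2* and *Gins3*, parts of the GINS complex that activates the loaded helicase, rose by 0.72 and 0.93, and *Topbp1*, a scaffold of origin firing, by 0.74. *Gins3* did not pass without control nerves K1 and L4 (0.82, adjusted p = 0.0727), nor *Topbp1* with log2(TPM + 0.1) (0.82, adjusted p = 0.0519, limma). Among 23 replication fork genes, 17 rose and 0 fell, with a median of 0.76. By edgeR, no gene of these lists was lower at an unadjusted p under 0.05. Without K2, 10 of the 12 and 19 of the 23 rose. *Fen1*, the flap nuclease of Okazaki fragments, rose by 0.89 (adjusted p = 5.67e-05), *Pola1*, the catalytic subunit of DNA polymerase alpha, by 1.04 and the clamp loader gene *Rfc4* by 0.85. Of the 4 MCM genes outside the ring, 1 rose, *Mcm10* (log2 fold change 1.08, adjusted p = 0.00655), a helicase activator that is not a ring subunit. Without control nerves K1 and L4 *Mcm10* did not pass (0.85, adjusted p = 0.11). *Mcm8* was at 0.18 and *Mcmbp*, a binding partner of the ring proteins, at 0.23, without passing. *Mcmbp* passed without K2 (0.29, adjusted p = 0.0148).

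Genes that act on CDT1 and geminin proteins moved in part. Of 10 genes for ligases and their inhibitor, 4 rose and 1 fell, where 14.1% and 12.3% of all genes did. A single fall among 10 is near the share over all genes. *Dtl*, which encodes CDT2, the receptor that brings CDT1 to CUL4, went from 9.91 ± 1.98 to 26.7 ± 7.40 CPM (SD, n = 4; log2 fold change 1.43, SE 0.224, adjusted p = 0.000806). *Skp2*, the receptor of the other ligase for CDT1, rose by 0.73 (adjusted p = 0.0082) and its cofactor *Cks1b* by 1.19. The *Skp2* call was lost with log2(TPM + 1) (adjusted p = 0.112, limma), with log2(TPM + 0.1) (0.139, limma) and without control nerves K1 and L4 (log2 fold change 0.65, adjusted p = 0.11). *Fbxo5*, which encodes EMI1, an inhibitor of the ligase that degrades geminin, rose by 1.20 (adjusted p = 0.000182). *Rbx1*, the RING subunit of cullin ligases, fell by 0.33 on the log2 scale (adjusted p = 0.0153). That call was lost in 6 of 20 alternatives, among them library totals (−0.18, adjusted p = 0.145), log2(TPM + 1) (−0.20, adjusted p = 0.72, limma) and the fit without control nerve K1 (−0.29, adjusted p = 0.0542).

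The mRNAs of other proteins that CRL4-CDT2 degrades did not follow the licensing genes, since 2 of 3 fell and 0 rose. *Kmt5a*, a histone H4 methyltransferase, was at 102 to 123 CPM in controls and 49.7 to 56.3 CPM in *Nae1* cKO nerves (log2 fold change −1.05, adjusted p = 2.55e-06). *Cdkn1a*, which encodes the CDK inhibitor p21, was at 26.2 to 59.3 and 10.1 to 19.3 CPM (log2 fold change −1.43, adjusted p = 0.00576). *Tdg*, a DNA glycosylase, was at 0.14 and did not pass. The groups did not overlap for *Kmt5a* and *Cdkn1a*, K2 included.

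Of 12 genes of E2F and CDK control, 8 rose and 1 fell, where 14.1% and 12.3% of all genes did. A single fall among 12 is near the share over all genes. *E2f7*, an E2F that represses S phase genes, rose by 1.49 (adjusted p = 0.000586) and *Ccna2*, the S phase cyclin, by 1.20. Without control nerves K1 and L4 *Ccna2* did not pass (0.98, adjusted p = 0.0743). *Rb1*, the retinoblastoma gene that holds E2F in check, fell by 0.43 on the log2 scale (adjusted p = 0.00202). On the TPM scales *Rb1* was at −0.03 to −0.07 and did not pass (adjusted p = 0.965 with log2(TPM + 1), 0.967 with log2(TPM + 0.1) and 0.685 with TPM rescaled without genes under 300 bases, limma). *Gmnc* and *Mcidas*, relatives of geminin that act in multiciliated cells, had 0 counts in every nerve.

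**Figure D5:**
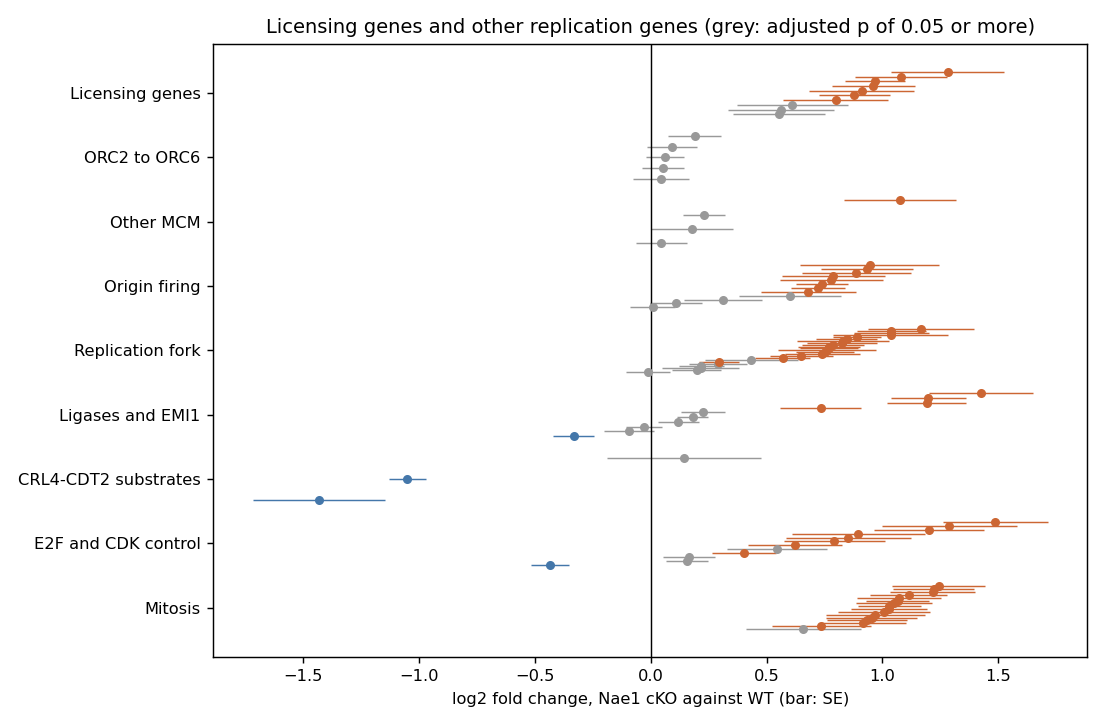
Log2 fold change (x axis, Nae1 cKO against WT, bar: SE) of each tested gene in 9 lists (y axis), coloured orange where a gene rose, blue where it fell and grey where it did not pass. Licensing genes have a median of 0.89, near the 0.73 of origin firing and 0.76 of the fork, while Orc2 to Orc6 lie close to 0.

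Licensing genes were also set beside genes of mitosis, of which 15 of 16 rose with a median log2 fold change of 1.03. *Mki67*, the common marker of cycling cells, went from 310 ± 50.6 to 600.0 ± 157 CPM (SD, n = 4; log2 fold change 0.95, adjusted p = 0.00567). Without control nerves K1 and L4 *Mki67* did not pass (0.77, adjusted p = 0.0827). The checkpoint genes *Ttk* and *Mad2l1* rose by 1.07 and 1.03, and the kinesin gene *Kif2c* by 1.22. Without K2, 16 of 16 rose. K2 was the lowest of its group for 15 of these 16 genes, as it was for the 10 licensing genes. The mean log2 CPM of the licensing genes less that of the mitosis genes was −0.859 to −0.549 in controls and −0.983 to −0.805 in *Nae1* cKO nerves, which overlapped.

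Markers of some cell types in a nerve differed between the groups too. Over all genes tested, 14.1% rose and 12.3% fell. Of 12 macrophage markers 9 rose, and their summed level was 242 to 263 CPM in controls and 429 to 551 CPM in *Nae1* cKO nerves. K2 had the highest macrophage sum of all nerves (551 CPM) and the lowest licensing levels of its group. Of 5 fibroblast markers 4 rose (sums of 13700 to 16800 and 17100 to 18900 CPM), and of 7 Schwann cell markers 1 rose and 2 fell (sums of 2810 to 3040 and 2340 to 2660 CPM). Of 5 endothelial markers 2 fell (sums of 155 to 203 and 121 to 152 CPM), of 4 mural markers 1 rose (373 to 408 and 365 to 402 CPM) and of 3 perineurial markers 1 fell (129 to 219 and 137 to 238 CPM). The mural and perineurial sums overlapped between the groups.

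Skeletal muscle markers were at 48.5 to 458 CPM in controls and 14.8 to 48.3 CPM in *Nae1* cKO nerves, and 3 of 7 fell, none of which passed without K2. Erythroid markers, mostly globins that library preparation depletes, overlapped (11.8 to 31.3 and 13.7 to 27.3 CPM; 0 of 4 passed by edgeR, also at an unadjusted p under 0.05). The lymphocyte genes *Cd3d*, *Cd3e* and *Cd79a* had 0 to 2 counts per nerve, and *Ptprc*, shared by all leukocytes, rose by 0.80. The part of these cell types in the licensing result was not tested. In whole nerve, more cells in cycle and more licensing mRNA per cell cannot be told apart, nor can fewer cells of a type and less RNA per cell.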

How the data were processed

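Total RNA of 8 sciatic nerves (4 WT, 4 *Nae1* cKO) was grouped by the labels. For each nerve the authors deposited an RSEM table per gene with the expected count (RSEM's estimate of the fragments of a gene, not scaled), TPM (transcripts per 1000000 after correction for length, by the authors) and FPKM, which was not used. FastQC 0.11.5, STAR, RSEM and the build GRCm38 stand in the submitters' processing notes, whereas the methods of the paper name TopHat on mm10 and Cuffdiff. Strand and annotation settings were not given in the sources used here.

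Expected counts were rounded, filtered by edgeR's filterByExpr (17090 genes), scaled by TMM and compared with edgeR 4.0.16 (quasi-likelihood test, robust, R 4.3.3, no covariates). Benjamini-Hochberg adjustment ran over all genes tested, with calls at an adjusted p under 0.05. Each SE was derived from this test, as the absolute log2 fold change divided by the square root of the F statistic. Where counts are estimated among overlapping or near-identical transcripts they are uncertain, as for *Kif11*, listed under 2 identifiers with equal counts and counted once. Single ratios were compared by a two-sided exact permutation test (scipy 1.17.1). The edgeR test, not the permutation test, was checked on simulated data.

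The alternatives were DESeq2 1.42.0, limma-voom 3.58.1, other scalings and filters, TPM with pseudocounts of 1 and 0.1, the letter of the labels, and nerves left out. Members and lists were chosen with earlier results of these data known. Named genes were the 10 licensing genes, *Nae1*, *Fbxo5*, *Skp2*, *Dtl*, *Mki67*, of each list the 3 genes at most whose adjusted p was smallest, and those that went against their list. Of the marker lists, 1 Schwann cell and 1 lymphocyte gene are not reported here. Gene positions are from GENCODE vM21 (GRCm38), matched by identifier, and promoter windows from RefSeq (GRCm38.p6). Depth was 12962798 to 14766770 expected counts per nerve, which leaves genes of few counts, such as *Cdt1*, with wide errors.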

Additional observations from a re-analysis of the deposited data

Results flagged for a closer look

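Of 46 sets of 4 nerves examined (each licensing gene's level and effective length, the *Cdt1* to *Gmnn* ratio, the spread of the ring subunits and the licensing level less the mitosis level, in either group), 3 held 1 nerve far from the other three, and chance alone gives about 1 in 20. All 3 concerned *Nae1* cKO nerve K2. *Mcm2* had 16.3 CPM in K2, against 28.9 to 31.4 CPM in the rest of the group. *Mcm5* had 26.3 CPM in K2, against 46.5 to 49.6 CPM in the rest. The effective length of *Mcm2* was 2870 bases in K2 and 3170 to 3220 bases in the others.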

How the results depend on the processing

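The number of licensing genes that rose was 7, and 5 to 10 with each nerve left out in turn: 10 without K2 and 5 without control nerve L4, which loses *Mcm4* and *Mcm6*. It was 8 with DESeq2, 6 with limma-voom, 7 with DESeq2 size factors, 10 with library totals, 5 without a filter, 7 with at least 10 counts in every nerve, 5 with limma on log2(TPM + 1) or log2(TPM + 0.1), 9 with the letter as a term, 8 with letter L alone and 3 without WT K1 and L4. With TPM rescaled without genes under 300 bases, an alternative chosen after seeing the data, it was 8. None of the 10 fell under any of these. Library totals shifted the median log2 fold change of all genes to 0.16 (3875 higher and 1255 lower calls, against 2411 and 2099), log2(TPM + 1) to 0.10 (1297 and 424) and log2(TPM + 0.1) to 0.13 (1245 and 415), and rescaled TPM gave 2743 and 1309. The 10 licensing genes stayed above the median of all genes in each of these. With library totals *Mcm2* did so by least (0.72). On the TPM scales *Orc1* did so by least (0.14 with log2(TPM + 1), 0.16 with log2(TPM + 0.1) and 0.11 with rescaled TPM, where the median was 0.08). *Orc1* did not pass on these scales (adjusted p = 0.827, 0.874 and 0.789 in that order, limma). In the other replication lists, mitosis aside, 38 genes rose and 4 fell. These became 19 and 2 with log2(TPM + 1), 18 and 2 with log2(TPM + 0.1), 2 lower with rescaled TPM and 16 higher without WT K1 and L4, where fewer nerves were fitted. With single nerves left out they ran from 28 to 44 and from 3 to 4. The difference in the log2 *Cdt1* to *Gmnn* ratio ran from −0.532 to −0.0279 with single nerves left out (−0.346 with all), being smallest without control nerve L3, and was −0.479 from counts. The difference in the spread of the ring subunits ran from 2.51 to 4.47 percentage points (3.74 with all). The log2 fold change of *Orc3* turned to −0.0007 with letter L alone and −0.0138 without WT K1 and L4, and that of *Tdg* to −0.14 without WT K1 and L4. The causes were not tested. No paired analysis was possible because the groups share no replicate labels. Counts of 24 to 61 per nerve limit *Cdt1*.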
